A study of Mus musculus with 39 samples.

Results

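Bone morphogenetic protein (BMP) target genes and the hepcidin axis were followed in mice kept under reduced oxygen for 2 hours, through the 10 genes Id1, Id2, Id3, Id4, Smad6, Smad7, Bmp6, Hamp, Tfr2 and Slc40a1. The members were every probe set, a group of short probes against one transcript, that the platform annotation names by exactly 1 of these symbols, which gave 18 of the 34945 probe sets named by 1 gene and 10 of 18193 genes. RNA came from liver (8 hypoxia and 8 vehicle samples), bone marrow (4 hypoxia and 3 vehicle samples) and spleen (8 hypoxia and 8 vehicle samples) of B6C3F1 mice, which are first-generation hybrids of C57BL/6 and C3H parents. Each sample was measured on 1 of 39 Affymetrix arrays. The hypoxia samples are labelled reduced oxygen and the vehicle samples control, both at 2 hours. The oxygen level, the vehicle and the age of the mice are not given in the sources used here. All mice were killed under ketamine and acepromazine anesthesia, which the hypoxia and vehicle groups share. Marrow was taken from the humerus, liver from the left lateral lobe and spleen as part of a cross-section. The labels do not say that replicates were separate mice, so the p-values speak of the spread among these samples, and that spread may be technical in origin.

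BMP ligands bind pairs of receptor kinases at the cell surface, which phosphorylate SMAD1, SMAD5 and SMAD9, and these enter the nucleus with SMAD4. In the nucleus the complex switches on the Id genes, whose proteins pair with and block basic helix-loop-helix (bHLH) transcription factors, and the inhibitory SMADs, SMAD6 and SMAD7, which shut the pathway down. In liver, BMP6 from sinusoidal endothelial cells acts on hepatocytes to raise hepcidin, the product of Hamp. Hepcidin binds ferroportin, the cellular iron exporter encoded by Slc40a1, and causes its breakdown, so hepcidin limits iron entry into plasma. Transferrin receptor 2 (Tfr2) is a sensor of iron-loaded transferrin on hepatocytes and erythroid precursors. Hepcidin also answers to interleukin 6 through the transcription factor STAT3.

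The set of RefSeq upstream sequences used here, of the build GRCm38.p6, covered 7 of the 10 genes, with 9 start sites in all. The 250 bases before the start are shown for Hamp, in which both a BMP motif and a STAT motif lie, and for Id2, Id3 and Id4, the Id genes with a called change. Capitals mark matches on either strand to 5 motifs, which are the BMP responsive element GGCGCC, the SMAD box CAGAC, the STAT site TTCNNNGAA, the hypoxia response element core ACGTG and the E-box CACGTG, which contains the core.
Hamp, chr7:30944030-30944279, minus strand: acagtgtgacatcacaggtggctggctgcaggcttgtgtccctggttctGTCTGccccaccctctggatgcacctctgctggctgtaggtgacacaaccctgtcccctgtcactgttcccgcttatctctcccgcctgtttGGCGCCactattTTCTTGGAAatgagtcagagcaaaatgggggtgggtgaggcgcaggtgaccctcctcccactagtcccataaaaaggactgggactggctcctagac
Id2, chr12:25096093-25096342, minus strand: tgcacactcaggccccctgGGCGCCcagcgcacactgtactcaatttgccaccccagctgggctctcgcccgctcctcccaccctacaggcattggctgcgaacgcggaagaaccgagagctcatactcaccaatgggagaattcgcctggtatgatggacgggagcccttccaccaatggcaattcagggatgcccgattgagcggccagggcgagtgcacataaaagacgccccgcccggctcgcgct
Id3, chr4:136143572-136143821, plus strand: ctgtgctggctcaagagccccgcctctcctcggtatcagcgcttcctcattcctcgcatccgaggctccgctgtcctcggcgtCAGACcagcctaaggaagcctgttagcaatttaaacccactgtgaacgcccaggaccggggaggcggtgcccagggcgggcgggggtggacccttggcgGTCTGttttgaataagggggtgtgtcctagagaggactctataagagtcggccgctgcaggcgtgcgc
Id4, chr13:48260866-48261115, plus strand: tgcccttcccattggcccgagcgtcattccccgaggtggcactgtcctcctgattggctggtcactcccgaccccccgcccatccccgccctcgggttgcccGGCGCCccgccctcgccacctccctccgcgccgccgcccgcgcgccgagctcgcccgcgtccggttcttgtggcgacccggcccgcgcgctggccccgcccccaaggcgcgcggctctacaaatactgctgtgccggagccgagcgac
The Hamp window held the BMP responsive element from 109 to 104 bases before the start and the STAT site from 97 to 89 bases before it, with a SMAD box on the opposite strand from 201 to 197. The Id2 window held 1 BMP responsive element, 231 to 226 bases before the start, and the Id4 window held 1, from 148 to 143. The Id3 window held no such element in these letters and had SMAD boxes at 167 to 163 and, on the opposite strand, at 68 to 64 bases before the start. Among 32851 upstream windows of the same length, 9.59% held the BMP responsive element, 42.2% the SMAD box, 7.02% the STAT site, 16.6% the hypoxia response element core and 6.02% the E-box. None of the 4 printed windows held the core or the E-box. The core lay in the windows of the other 3 genes with sequence, which are Smad6, Bmp6, where it formed an E-box, and Tfr2, at 2 of its 3 start sites. A match is a description of the letters and not a site shown to be bound.

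The deposited intensities were taken to log2, and the median of an array lay at 5.21 to 5.34 for liver arrays, at 6.22 to 6.29 for marrow arrays and at 6.16 to 6.20 for spleen arrays, so levels were not set against each other between tissues. All 9 hepatocyte markers with a probe set passed the filter on dim genes in liver, against 2 of 9 in bone marrow and 6 of 9 in spleen. All 8 neutrophil, 7 erythroid and 6 B cell markers passed in bone marrow and also in spleen. These counts therefore do not set bone marrow apart from spleen. Each summed marker level given here is the log2 of the summed intensities of a list, so its brightest markers weigh most. For pancreatic acinar markers it was 13.4 in spleen hypoxia replicate 2 and 15.8 in spleen vehicle replicate 5. The other 14 spleen arrays ran from 8.90 to 10.5. The spleen results with and without this pair of arrays are given below. Liver and spleen had replicates 1 to 4 and 5 to 8. In liver the 30th percentile of an array ran from 4.16 to 4.23 in replicates 1 to 4 and from 4.28 to 4.31 in replicates 5 to 8, without overlap, and within-set values are given beside the results they touch. The labels name no batch.

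The Id genes split by tissue and by gene. Id3 fell 3.09-fold in liver and 2.24-fold in spleen, and its bone marrow values overlapped. Id2 moved in opposite directions, falling in liver and rising in bone marrow and spleen. Id4 rose in bone marrow and fell in spleen, Smad7 rose in bone marrow and spleen, and Id1, Smad6, Bmp6, Hamp, Tfr2 and Slc40a1 had no called change in any tissue. A call is an adjusted p under 0.05 in limma, adjusted by the Benjamini-Hochberg method over the 12735 genes tested in the tissue, and each ± beside a log2 difference is its standard error. In liver 2 of 10 genes were called, both lower, where 11.1% of all genes tested were called (3.88% higher and 7.22% lower). In bone marrow 3 of 9 were called, all higher, where 7.69% of all genes were (2.76% higher and 4.92% lower). In spleen 4 of 9 were called, 2 higher and 2 lower, where 19.4% of all genes were (6.83% higher and 12.6% lower). Hamp is the gene not tested in bone marrow and spleen, where it lay below the filter. The median log2 difference of the genes tested was -0.22 for liver, 0.30 for marrow and 0.04 for spleen, beside -0.03, -0.01 and -0.01 over all genes tested. The plot of changes by tissue shows these differences with their intervals.

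**Figure D1:**
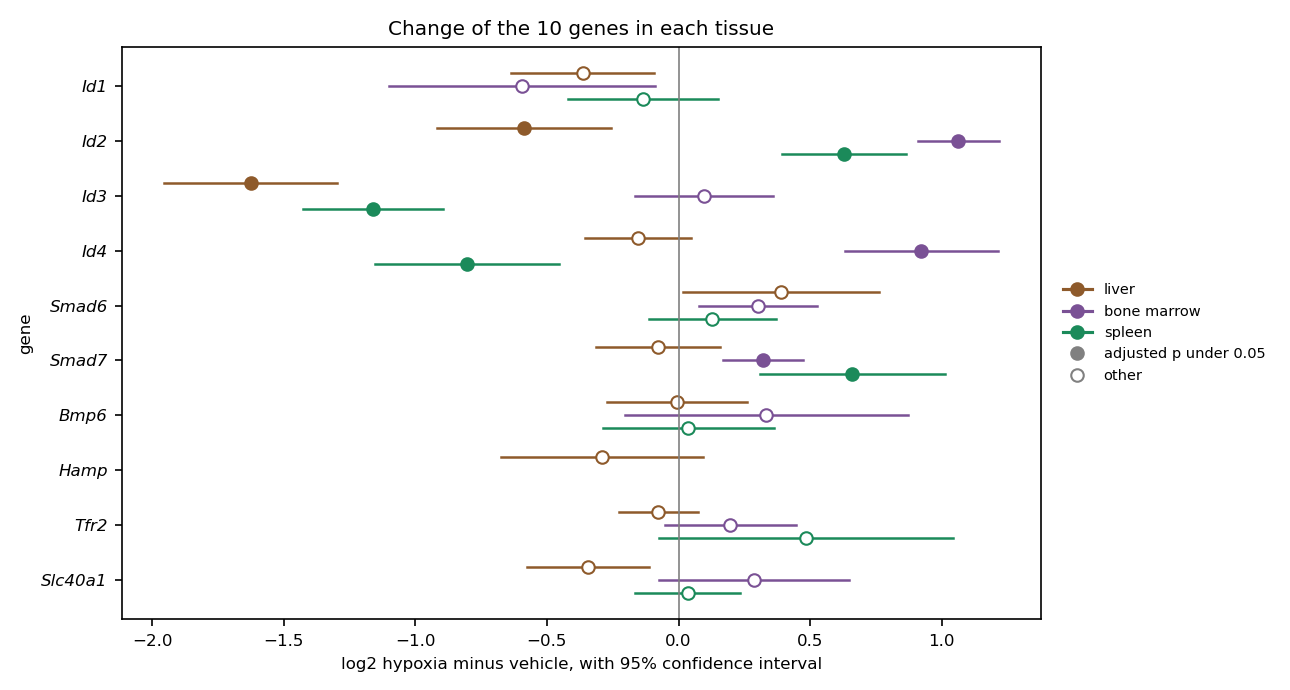
Log2 difference, hypoxia minus vehicle, of the 10 genes (rows) in liver, bone marrow and spleen, with 95% confidence intervals from limma; filled points have an adjusted p under 0.05. Id2 lies on both sides of 0, at -0.59 in liver and 1.06 in bone marrow, and Id3 lies at -1.63 in liver and -1.16 in spleen.

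Id3 had the lowest adjusted p of the 10 genes in liver. Its protein holds back E proteins, a class of bHLH factors, in lymphocytes and other cells. In liver its single probe set read 6.61, 6.91 and 7.84 (lowest, median and highest log2 intensity) in 8 hypoxia samples, against 8.03, 8.64 and 9.10 in 8 vehicle samples. Every hypoxia liver lay below every vehicle liver, as was the case, in either direction, for 2.84% of all genes. The difference was -1.63 ± 0.16, a 3.09-fold lower level (limma, adjusted p = 6.45e-07), and it was -1.57 within replicates 1 to 4 and -1.69 within replicates 5 to 8. In spleen Id3 read 8.39, 8.72 and 9.19 in 8 hypoxia samples, against 9.57, 9.96 and 10.16 in 8 vehicle samples. The spleen groups did not overlap either, which held for 4.69% of all genes. The spleen difference was -1.16 ± 0.13, a 2.24-fold lower level (limma, adjusted p = 7.6e-06), and it was -1.24 without the 2 arrays high in acinar markers. Without those arrays 4 of 9 genes were called in spleen, the same 4, where 18.4% of all genes were. In bone marrow, Id3 read 9.35, 9.15, 9.49 and 9.03 in the hypoxia samples, against 9.01, 9.23 and 9.23 in the vehicle samples. These marrow values overlapped, with a difference of 0.10 ± 0.12 and a 95% confidence interval of -0.17 to 0.36 (limma, adjusted p = 0.653).

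Id3 is abundant in B cells, and the spleen's B cell markers moved in the same direction. Of 6 B cell markers tested in spleen, 2 were called lower and 0 higher. The summed B cell level was 12.84 to 14.56 in hypoxia spleens, against 14.11 to 14.81 in vehicle spleens. The summed neutrophil level was 12.82 to 16.09 in hypoxia spleens, against 13.23 to 14.88 in vehicle spleens, with 1 of 8 markers called higher. The part of these cells in the spleen results was not tested. In bulk tissue, fewer cells of a type and less RNA per cell cannot be told apart. In liver the summed hepatocyte level was 17.68 to 17.82 in hypoxia samples, against 17.71 to 17.80 in vehicle samples.

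Id2, which encodes a bHLH inhibitor needed for innate lymphoid cell development, had 3 probe sets that gave the same direction within each tissue. In bone marrow the brightest read 11.30, 11.29, 11.26 and 11.29 in the hypoxia samples, against 10.37, 10.12 and 10.18 in the vehicle samples. All 4 hypoxia marrows lay above all 3 vehicle marrows, as did those of 7.77% of all genes. The difference was 1.06 ± 0.07, a 2.09-fold higher level (limma, adjusted p = 0.000207), and the other 2 probe sets differed by 1.09 and 0.99. In spleen Id2 read 10.84, 11.27 and 11.38 in hypoxia samples, against 10.12, 10.62 and 10.91 in vehicle samples. The spleen groups overlapped at their edges, with 7 of 8 hypoxia spleens above every vehicle spleen, and the difference was 0.63 ± 0.11 (limma, adjusted p = 0.000669). It was 0.78 within replicates 1 to 4 and 0.48 within replicates 5 to 8. In liver Id2 read 9.49, 10.17 and 10.86 in hypoxia samples, against 10.31, 10.60 and 11.07 in vehicle samples. One hypoxia liver lay among the vehicle livers and the rest lay below all of them, for a difference of -0.59 ± 0.16 (limma, adjusted p = 0.0201). The other 2 liver probe sets differed by -0.69 and -1.19, and for the dimmest of the 3, at 4.69 to 5.43 in hypoxia livers and 5.82 to 7.09 in vehicle livers, the groups did not overlap. Within replicates 1 to 4 the liver difference was -0.80 with an adjusted p of 0.112, and within replicates 5 to 8 it was -0.38 with 0.0442 (limma).

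Id4, an Id protein known for its part in neural and glial development, had 3 probe sets. In bone marrow the brightest read 8.06, 7.78, 8.08 and 7.69 in the hypoxia samples, against 6.83, 6.89 and 7.22 in the vehicle samples. Of all genes in bone marrow, 20.5% had groups without overlap in either direction, and 7.77% had hypoxia above vehicle. For Id4 the groups did not overlap on any of the 3 probe sets. The difference was 0.92 ± 0.13, a 1.90-fold higher level (limma, adjusted p = 0.00596), and the other probe sets differed by 0.43 and 1.47. In spleen Id4 read 6.63, 7.36 and 7.97 in hypoxia samples, against 7.67, 8.14 and 8.70 in vehicle samples. One hypoxia spleen lay within the vehicle range. The difference was -0.81 ± 0.17 (limma, adjusted p = 0.00228), with -0.69 and -0.52 on the other probe sets, and within replicates 1 to 4 it was -0.50 with an adjusted p of 0.199. In liver a different probe set was the brightest and gave -0.15 ± 0.10 (limma, adjusted p = 0.352), while the other 2 probe sets gave -0.62 and -0.24. Those 2 were dim in liver, with means of 4.32 and 4.37 in hypoxia livers, against 4.94 and 4.61 in vehicle livers.

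Id1, often used as a readout of BMP signalling, had 1 probe set. In liver it read 5.92, 6.49 and 6.74 in hypoxia samples, against 6.40, 6.78 and 7.24 in vehicle samples. The liver groups overlapped, with 5 of 8 vehicle livers above every hypoxia liver, for a difference of -0.36 ± 0.13 with an unadjusted 95% interval of -0.64 to -0.09 (limma, adjusted p = 0.0796). Without vehicle replicate 5 it was called (adjusted p = 0.0395). In bone marrow it read 9.03, 8.73, 8.43 and 8.70 in the hypoxia samples, against 9.89, 9.07 and 8.99 in the vehicle samples. The highest value was a vehicle marrow, and the difference of -0.59 ± 0.22 missed the threshold (limma, adjusted p = 0.144). It was -0.31 without vehicle replicate 1. In spleen the difference was -0.13 ± 0.14 (limma, adjusted p = 0.539), but it was 0.23 within replicates 1 to 4 and -0.50 within replicates 5 to 8, where the adjusted p was 0.0191.

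**Figure D2:**
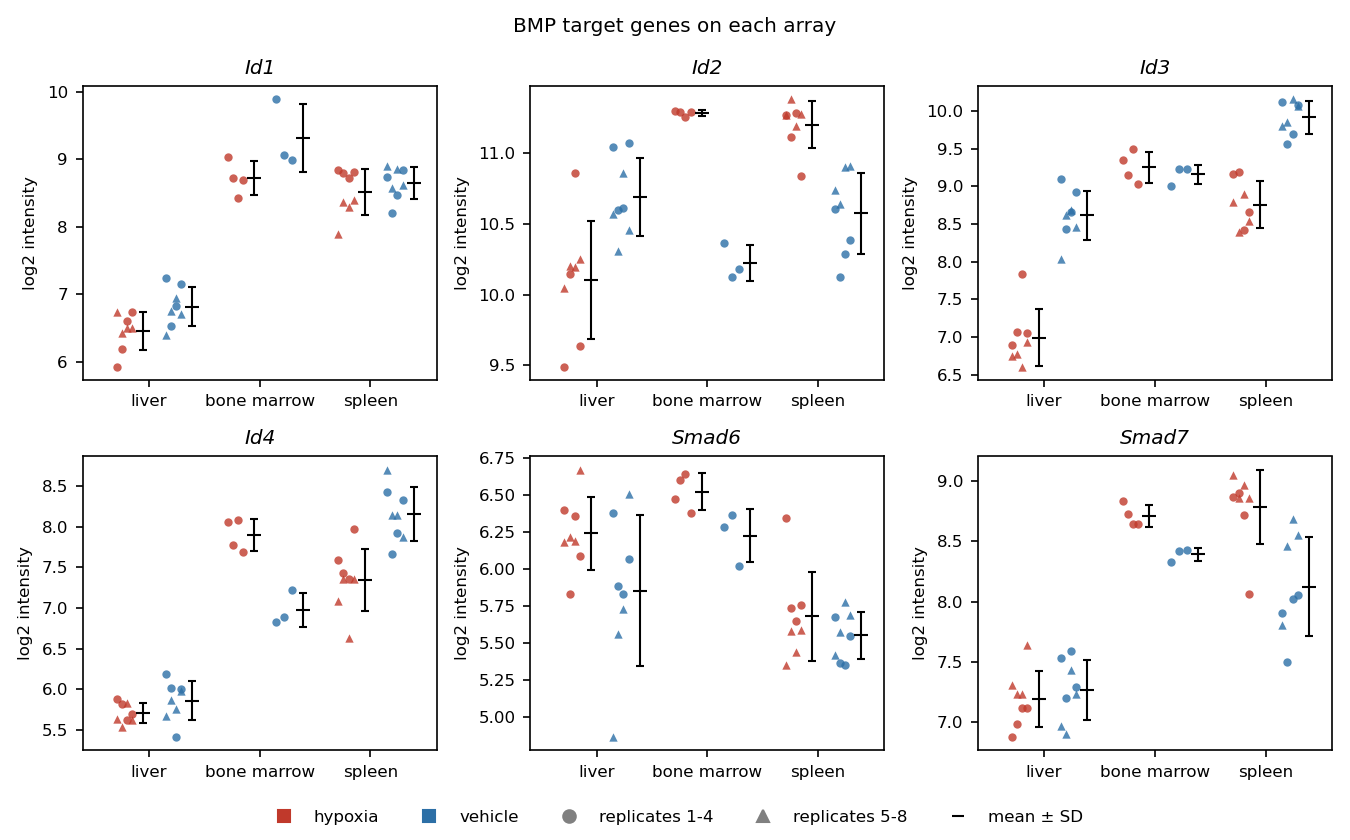
Log2 intensity of the Id genes, Smad6 and Smad7 on every array, by tissue, with hypoxia left of vehicle; circles are replicates 1 to 4, triangles replicates 5 to 8, and bars the mean and SD. Id3 in liver and spleen and Id2, Id4, Smad6 and Smad7 in bone marrow show no overlap between hypoxia and vehicle, and the 4 hypoxia marrows lie between 11.26 and 11.30 for Id2. Groups did not overlap, in either direction, for 20.5% of all genes in bone marrow, 2.84% in liver and 4.69% in spleen. Each gene has its own vertical scale.

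Of the inhibitory SMADs, Smad7 was called in bone marrow and spleen and Smad6 in no tissue. Smad7, which blocks receptor signalling of both BMP and TGF-beta, read 8.84, 8.73, 8.64 and 8.64 in hypoxia marrows, against 8.33, 8.42 and 8.43 in vehicle marrows. The hypoxia marrows all lay higher, by 0.32 ± 0.07 (limma, adjusted p = 0.0239), although the call was lost without vehicle replicate 1, 2 or 3 or hypoxia replicate 2, with an adjusted p of up to 0.0798. The second probe set gave 0.28, again without overlap. Hypoxia marrows lay above all vehicle marrows for 7.77% of all genes. In spleen Smad7 read 8.06, 8.86 and 9.05 in hypoxia samples, against 7.50, 8.04 and 8.68 in vehicle samples. All but 1 of the hypoxia spleens lay above every vehicle spleen, for a difference of 0.66 ± 0.17 (limma, adjusted p = 0.00917). It was 0.77 within replicates 1 to 4 (adjusted p = 0.0777) and 0.56 within replicates 5 to 8 (adjusted p = 0.035). In liver Smad7 read 6.88, 7.18 and 7.64 in hypoxia samples, against 6.90, 7.26 and 7.59 in vehicle samples. The liver groups covered the same range, for a difference of -0.08 ± 0.11 (limma, adjusted p = 0.752), which was -0.38 within replicates 1 to 4 and 0.22 within replicates 5 to 8.

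Smad6, which favours BMP receptors as its target, is the second inhibitory SMAD. In bone marrow it read 6.47, 6.61, 6.65 and 6.38 in hypoxia samples, against 6.29, 6.37 and 6.02 in vehicle samples. These groups did not overlap, with hypoxia above vehicle as for 7.77% of all genes. The difference of 0.30 ± 0.10 missed the threshold (limma, adjusted p = 0.104). In liver the difference was 0.39 ± 0.18 (limma, adjusted p = 0.182) and in spleen 0.13 ± 0.11 (limma, adjusted p = 0.475).

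In bone marrow the markers of stroma stood higher too. The summed level of that list was 14.44 to 14.73 in hypoxia marrows, against 14.10 to 14.37 in vehicle marrows, with 2 of 8 markers called higher and 0 lower. The summed macrophage level was 13.54 to 13.74 in hypoxia marrows, against 13.24 to 13.62 in vehicle marrows, with 1 of 9 called higher. The part of these cells in the rise of Id2, Id4 and Smad7 was not tested.

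Bmp6, the ligand that ties liver iron to hepcidin, had no called change in liver. Its single probe set was not far above the liver array medians of 5.21 to 5.34, with a mean of 5.76. It read 5.50, 5.72 and 6.19 in hypoxia livers, against 5.21, 5.75 and 6.08 in vehicle livers. The ranges were nearly the same, with a difference of -0.01 ± 0.13 and an interval of -0.27 to 0.26 (limma, adjusted p = 0.987). The summed level of 12 sinusoidal endothelial markers was 11.72 to 11.87 in hypoxia livers, against 11.57 to 12.17 in vehicle livers. In bone marrow Bmp6 differed by 0.33 ± 0.24 (limma, adjusted p = 0.426), or by 0.06 without vehicle replicate 1 and 0.59 without vehicle replicate 3, and in spleen by 0.04 ± 0.15 (limma, adjusted p = 0.902). The spleen value covers 0.47 within replicates 1 to 4 (limma, adjusted p = 0.222) and -0.39 within replicates 5 to 8 (limma, adjusted p = 0.0366).

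Hamp was among the brightest genes of the liver, at percentile 99.5 of the means of probe sets named by 1 gene. The brighter of its 2 probe sets read 12.33, 13.05 and 13.35 in hypoxia livers, against 12.47, 13.38 and 13.70 in vehicle livers. The groups overlapped, with 4 of 8 vehicle livers above every hypoxia liver, for a difference of -0.29 ± 0.18 with an interval of -0.67 to 0.09 (limma, adjusted p = 0.364). The other probe set gave -0.34. Within replicates 1 to 4 the difference was -0.04, and within replicates 5 to 8 it was -0.54 (limma, adjusted p = 0.103), where hypoxia livers read 12.33 to 13.34 and vehicle livers 13.26 to 13.70. The difference between the sets was -0.49 ± 0.34 (limma interaction, adjusted p = 0.649). Hamp has a near-identical neighbouring copy, Hamp2, whose transcripts its probe sets may also bind. In bone marrow and spleen Hamp was below the filter, with 4.71 to 4.88 in hypoxia marrows and 4.72 to 4.84 in vehicle marrows, and 4.17 to 4.75 in hypoxia spleens and 4.19 to 4.59 in vehicle spleens.

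Slc40a1, the iron exporter that macrophages and hepatocytes use, read 10.08, 10.71 and 11.00 in hypoxia livers, against 10.80, 11.08 and 11.19 in vehicle livers. Most hypoxia livers lay below the vehicle range, for a difference of -0.34 ± 0.11 that lay just outside the threshold (limma, adjusted p = 0.0531). With the replicate number as a block the adjusted p was 0.0407, although the numbers were not shown to mark pairs. That fit called 18.7% of all liver genes (2385) in place of 11.1% (1413). Slc40a1 was also called without vehicle replicate 2 or 6 or hypoxia replicate 4 or 5 (adjusted p as low as 0.0258). The second probe set gave -0.37. In bone marrow Slc40a1 differed by 0.29 ± 0.16 (limma, adjusted p = 0.308), or by 0.06 without vehicle replicate 1, and in spleen by 0.03 ± 0.09 (limma, adjusted p = 0.843).

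Tfr2 had no called change in liver, at 11.75, 12.01 and 12.16 in hypoxia samples, against 11.97, 12.03 and 12.31 in vehicle samples. The ranges overlapped, with a difference of -0.08 ± 0.07 (limma, adjusted p = 0.583). In bone marrow it differed by 0.20 ± 0.11 (limma, adjusted p = 0.311), or by 0.08 without vehicle replicate 1. In spleen it read 8.20, 8.82 and 9.81 in hypoxia samples, against 7.34, 8.58 and 9.24 in vehicle samples. The lower vehicle values were those of replicates 5 to 8, and the difference of 0.48 ± 0.26 missed the threshold (limma, adjusted p = 0.224). It was -0.06 within replicates 1 to 4 and 1.03 within replicates 5 to 8 (limma, adjusted p = 0.0111). In replicates 5 to 8 the summed erythroid marker level was 14.83 to 15.14 in hypoxia spleens, against 13.34 to 14.94 in vehicle spleens, and in replicates 1 to 4 it was 14.61 to 15.80 in hypoxia spleens, against 14.61 to 15.92 in vehicle spleens. The part of erythroid cells in the Tfr2 values was not tested.

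**Figure D3:**
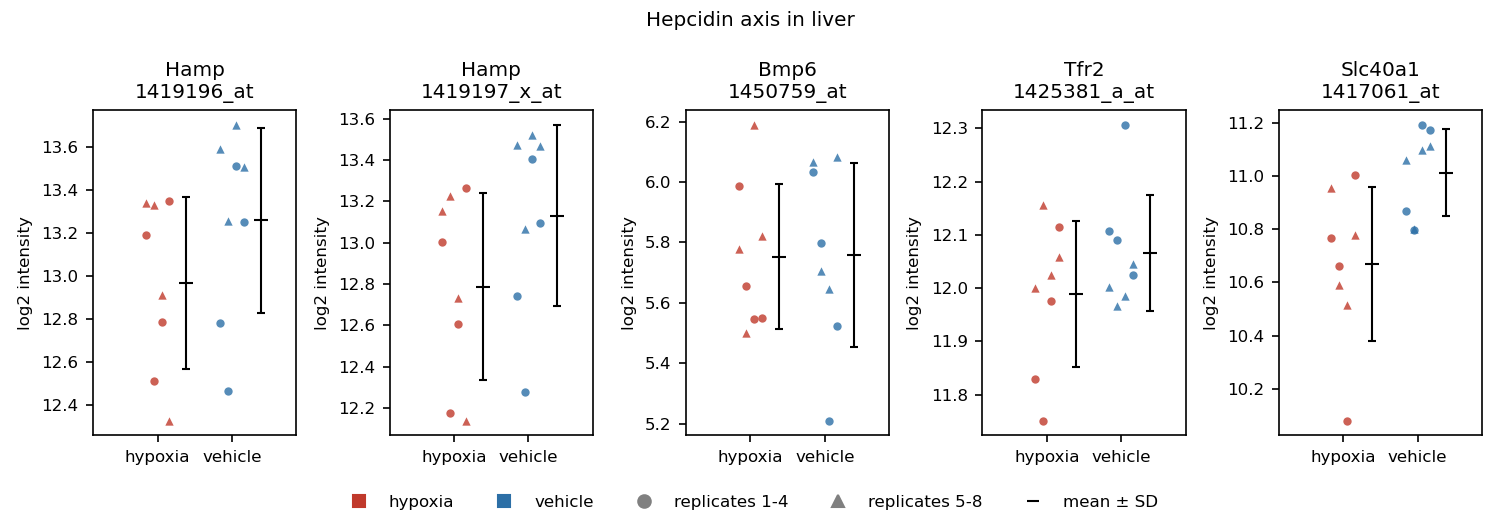
Log2 intensity of both Hamp probe sets, Bmp6, Tfr2 and Slc40a1 on each of 16 liver arrays, hypoxia left of vehicle; circles are replicates 1 to 4, triangles replicates 5 to 8, and bars the mean and SD. Hypoxia and vehicle overlap in all 5 panels, and the lowest Slc40a1 value is a hypoxia liver at 10.08. Each panel has its own vertical scale.

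Whether the responses differed between tissues was asked with an interaction contrast in a limma fit that held the 39 arrays as 6 groups. The fit took the arrays as independent, and the labels do not say whether the tissues came from the same mice. Between liver and spleen the difference of the responses was called for 3 of 9 genes, where 9.84% of all genes were. Id2 differed by -1.22 ± 0.19 (adjusted p = 1.70e-05), Smad7 by -0.74 ± 0.19 (adjusted p = 0.00956) and Id4 by 0.53 ± 0.17 (adjusted p = 0.0428). The Id4 call was lost without any 1 of 14 of the 32 liver and spleen arrays, with an adjusted p of up to 0.0744. It rests on the probe set brightest over both tissues. On the probe set brightest in spleen the Id4 difference was 0.18 ± 0.27 (adjusted p = 0.737), and on the third it was 0.28 ± 0.19 (adjusted p = 0.399 over all probe sets tested). Both of these probe sets were dim in liver. Id3, lower in both tissues, did not pass the test of a difference between them, at -0.46 ± 0.20 (adjusted p = 0.137), and was called when liver hypoxia replicate 3 was left out (adjusted p = 0.0295). Between liver and bone marrow 2 of 9 genes were called, where 2.76% of all genes were. These were Id2, at -1.65 ± 0.24 (adjusted p = 1.85e-05), and Id3, at -1.72 ± 0.26 (adjusted p = 2.70e-05). Id4 was at -0.59 ± 0.22 (adjusted p = 0.175), but on the probe set brightest in bone marrow it was at -1.54 ± 0.35 and called (adjusted p = 0.00687). The third Id4 probe set gave -1.71 ± 0.24 and was also called (adjusted p = 1.05e-05 over all probe sets tested). These other Id4 probe sets were the ones dim in liver. Between spleen and bone marrow 2 of 9 were called, where 0.272% of all genes were. These were Id3, at -1.26 ± 0.26, and Id4, at -1.73 ± 0.35 (adjusted p = 0.0157 for each). The Id3 call between spleen and bone marrow was lost without bone marrow vehicle replicate 1 or hypoxia replicate 3 (adjusted p of up to 0.104), and the Id4 call also without bone marrow vehicle replicate 2 (up to 0.0934).

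The response of replicates 5 to 8 was also set against that of replicates 1 to 4. Within replicates 1 to 4 alone, 1 of 10 genes was called in liver, where 5.96% of all genes were, and 2 of 9 in spleen, where 3.62% were. Within replicates 5 to 8 alone, 2 of 10 were called in liver, where 15.1% of all genes were, and 7 of 9 in spleen, where 26.0% were. Tested as a difference of the responses, 0 of 10 genes were called in liver in limma, where 0% of all genes were called and 1272 genes had an unadjusted p under 0.05. Those genes included 2 of the 10, Smad7 at 0.60 ± 0.18 and Tfr2 at 0.27 ± 0.12. In spleen 0 of 9 were called, where 0.196% of all genes were called and 1759 had an unadjusted p under 0.05, among them 5 of the 9. These were Id1, Smad6, Bmp6, Tfr2 and Slc40a1. Smad6 differed by -0.51 ± 0.19 (limma, adjusted p = 0.238) and Slc40a1 by -0.37 ± 0.17 (limma, adjusted p = 0.358). The spleen response of Id1 differed by -0.73 ± 0.19 (limma, adjusted p = 0.0965) and that of Bmp6 by -0.86 ± 0.24 (limma, adjusted p = 0.113). That of Tfr2 differed by 1.08 ± 0.42 (limma, adjusted p = 0.262) and was called without hypoxia replicate 4 (adjusted p = 0.0403). The summed stroma level in replicates 5 to 8 was 12.17 to 12.54 in hypoxia spleens, against 12.89 to 13.45 in vehicle spleens. In replicates 1 to 4 it was 12.52 to 13.21 in hypoxia spleens, against 12.21 to 13.14 in vehicle spleens. The part of these cells in the spleen differences was not tested.

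Upstream of these targets, of 17 BMP and TGF-beta receptor and SMAD genes tested in liver, 1 was called higher and 3 lower, with a median of -0.09. Smad5, one of the SMADs that carry the BMP signal, differed by -0.44 ± 0.11 in liver (adjusted p = 0.0092), by -0.47 ± 0.06 in bone marrow (adjusted p = 0.00595) and by -0.57 ± 0.08 in spleen (adjusted p = 7.13e-05), all in limma. It was the single gene of 15 called in bone marrow and of 15 called in spleen. With the mean of its probe sets in place of the brightest, the Smad5 difference was -0.14 in liver (adjusted p = 0.276) and -0.24 in bone marrow (adjusted p = 0.0501). In liver Smad3, a carrier of TGF-beta signals, was lower, at -0.47 ± 0.10, as was the type II receptor gene Acvr2b, at -0.36 ± 0.11, and the TGF-beta receptor gene Tgfbr1 was higher, at 0.30 ± 0.08. The calls of Acvr2b and Tgfbr1 were lost without any 1 of 8 and of 3 of the 16 liver arrays (adjusted p of up to 0.0772 and 0.0517), and both were lost under median centring (adjusted p = 0.0598 for Acvr2b and 0.0552 for Tgfbr1).

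Among ligands, antagonists and hormones that bear on hepcidin, 11 genes were tested in each tissue. In liver 1 was called higher and 1 lower. Gdf2, which encodes the endothelial ligand BMP9, differed by 0.24 ± 0.07 (limma, adjusted p = 0.0283), and Bmp4 by -0.37 ± 0.12 (limma, adjusted p = 0.0457). The calls were lost without any 1 of 4 and of 10 of the 16 liver arrays (adjusted p of up to 0.0595 and 0.0985), and both were lost under median centring (adjusted p = 0.0591 for Gdf2 and 0.0746 for Bmp4). In bone marrow 2 were called higher and 0 lower, Bmp2 by 0.54 ± 0.10 and Bmp5 by 0.33 ± 0.06 (limma, adjusted p = 0.0135 and 0.0192). The Bmp2 call was lost without vehicle replicate 2 and the Bmp5 call without vehicle replicate 1 or 3 or hypoxia replicate 2 (adjusted p of up to 0.0506 and 0.0577). In spleen 1 was called, the activin subunit gene Inhbb, which read 7.03, 8.03 and 8.99 in hypoxia samples, against 6.94, 7.13 and 7.21 in vehicle samples. The hypoxia spleens were far more spread than the vehicle spleens, for a difference of 0.87 ± 0.23 (limma, adjusted p = 0.011).

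Among other target and feedback genes of BMP and TGF-beta, liver had 1 higher and 1 lower call and spleen had lower calls; the difference between the tissues was not tested for these genes. In liver Skil, which encodes a repressor of SMAD complexes, read 9.32, 9.96 and 10.38 in hypoxia samples, against 7.90, 8.05 and 8.45 in vehicle samples. The groups did not overlap, and the difference was 1.73 ± 0.14 (limma, adjusted p = 6.72e-08). Tgif1, a second corepressor gene, was lower in liver, at -0.94 ± 0.13 (limma, adjusted p = 4.09e-05), and these were the 2 called of 12. In spleen, where 12.6% of all genes were called lower, 5 of 12 were called, all lower, with a median of -0.21. They included Tob1 at -0.50 ± 0.11, the pseudoreceptor gene Bambi at -0.54 ± 0.14, Skil at -0.43 ± 0.11 and Hey1 at -0.24 ± 0.08, whose call was lost without any 1 of 9 of the 16 spleen arrays (adjusted p of up to 0.084). In bone marrow 0 of 12 were called by limma, and 2 of the 12 had an unadjusted p under 0.05. Of the bHLH partners and relatives, Hes1, a Notch target, was lower in liver, at -0.48 ± 0.11, and in spleen, at -0.64 ± 0.09, the single call of 6 and of 7, and in bone marrow the single call of 7 was Lyl1, lower at -0.39 ± 0.08. The Lyl1 call was lost without vehicle replicate 1 or 3 or hypoxia replicate 2 or 3 (adjusted p of up to 0.0653).

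Of 21 iron handling genes tested in liver, where Hamp had no called change, 5 were called higher and 1 lower, with a median of 0.02. Tfrc, the receptor that brings transferrin iron into cells, read 10.25, 10.78 and 10.96 in hypoxia livers, against 8.02, 8.40 and 8.94 in vehicle livers. Every hypoxia liver lay above every vehicle liver, by 2.22 ± 0.14 (limma, adjusted p = 3.52e-09). The importer gene Slc39a14 differed by 1.18 ± 0.17 (adjusted p = 7.24e-05), the haem-degrading enzyme gene Hmox1 by 1.08 ± 0.27 (adjusted p = 0.0126) and Ncoa4, whose product sends ferritin to lysosomes, by 0.29 ± 0.08 (adjusted p = 0.0171), all in limma. In spleen 3 of 20 were higher and 1 lower, with Hp, the haemoglobin scavenger haptoglobin, at 1.73 ± 0.33, Hmox1 at 0.72 ± 0.18, Hfe at 0.45 ± 0.14 and Ireb2 at -0.17 ± 0.05. In bone marrow 1 of 20 was called, Ireb2, an iron regulatory protein gene, lower at -0.35 ± 0.05. The Hfe call in spleen was lost without any 1 of 4 of the 16 arrays (adjusted p of up to 0.0557), and the Ireb2 call in spleen without hypoxia replicate 8 (adjusted p = 0.0508).

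For the second input to hepcidin, interleukin 6 and STAT3, a list of acute phase genes was read, and the activity of that pathway was not measured. The list had 6 of 22 genes called higher and 0 lower in liver, with a median of 0.43. Of all genes tested in liver, 11.1% were called and 3.88% were called higher. The transcription factor genes Cebpd and Cebpb differed by 2.26 ± 0.14 and 1.24 ± 0.11 (limma, adjusted p = 2.59e-09 and 2.15e-07). The apolipoprotein gene Saa4 differed by 0.67 ± 0.12 and the metalloreductase gene Steap4 by 1.59 ± 0.43 (limma, adjusted p = 0.00085 and 0.0211). Steap4 ran from 9.84 to 13.14 in hypoxia livers, against 9.68 to 10.40 in vehicle livers, so the hypoxia livers were unequal, and its call was lost in the exact Wilcoxon test (adjusted p = 0.0819). The summed neutrophil marker level was 7.89 to 9.95 in hypoxia livers, against 7.81 to 8.14 in vehicle livers, with 2 of 5 markers called higher, and its part in the acute phase values was not tested. In spleen 2 of 12 were called, Cebpd at 1.62 ± 0.10 and Cebpb at 1.27 ± 0.17, both higher. In bone marrow 2 of 13 were called, Cebpd at -0.59 ± 0.09 and Steap4 at -0.76 ± 0.12, both lower. Of all genes, 19.4% were called in spleen and 7.69% in bone marrow.

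**Figure D4:**
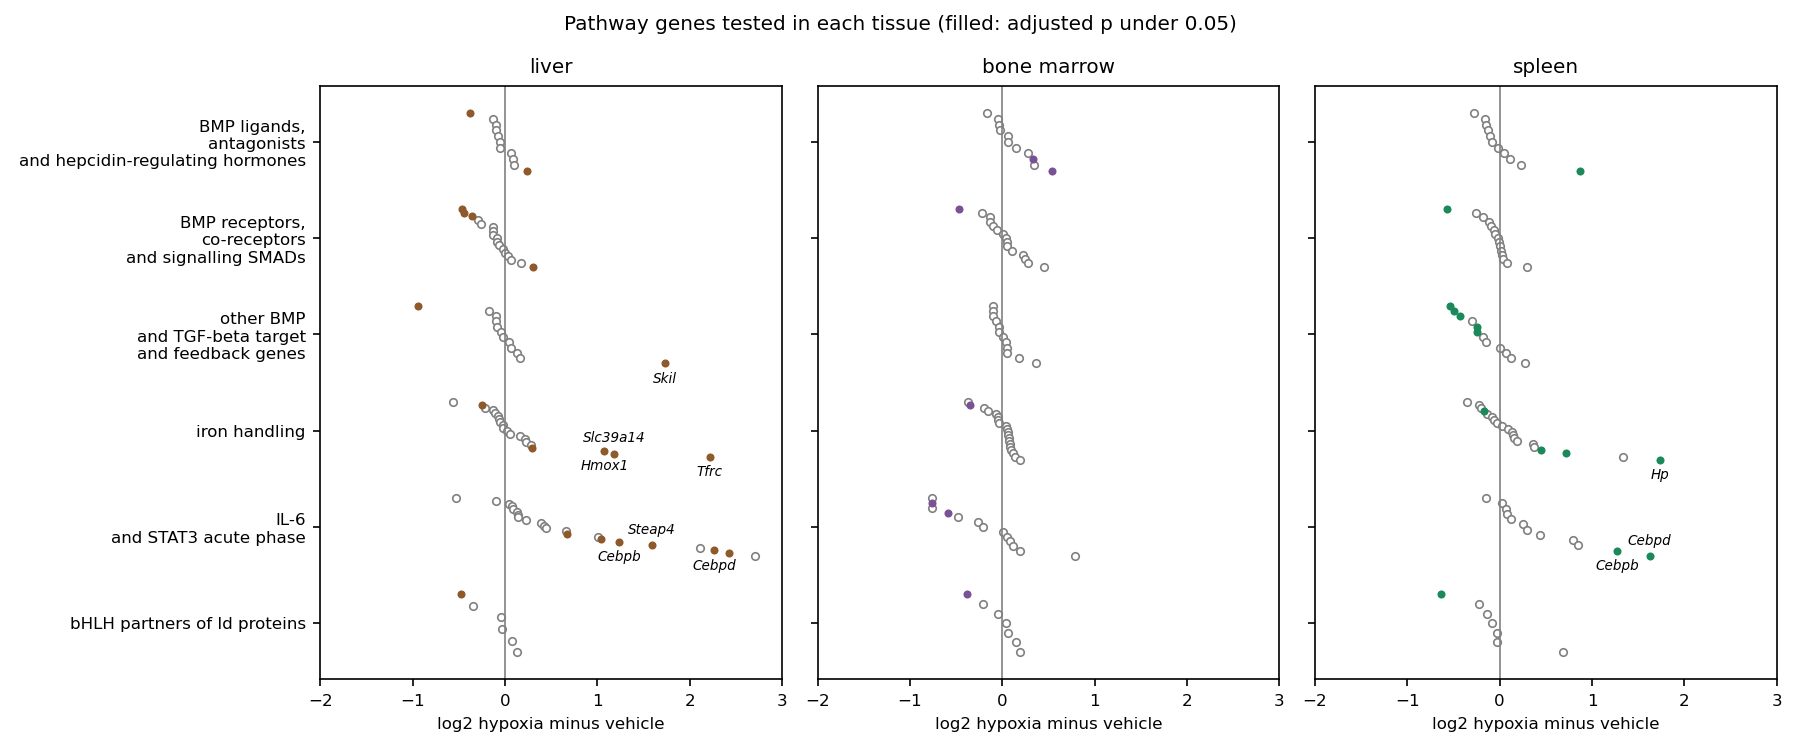
Log2 difference, hypoxia minus vehicle, of every tested gene (points) of 6 pathway lists (rows) in liver, bone marrow and spleen; filled points have an adjusted p under 0.05, and the named genes above 1 are labelled. In liver the labelled genes farthest to the right are Tfrc at 2.22 and Cebpd at 2.26, with unlabelled acute phase genes beyond them, and the called target and feedback genes in spleen all lie left of 0.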

How the data were processed

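The authors deposited linear intensity values, 1 per probe set and array. RMA, which corrects background, normalizes and summarises probes, and limma are named, without versions, in the submitters' processing notes. Intensities were taken to log2 with no offset. Of 45101 probe sets, 64 controls were left out, and the platform annotation named 34945 by 1 gene, 932 by several and 9160 by none. A gene's brightest probe set in the tissue stood for the gene. The dimmest genes, under percentile 30 of the gene means, were dropped, and 12735 were tested per tissue.

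Each tissue was fitted with two-sided tests by lmFit and eBayes of limma 3.58.1, run in R 4.3.3 (the data.table package was version 1.17.8), with no covariate. The script was tested on simulated data. Promoters and plots used Python 3.11.15 with matplotlib 3.10.9. The 10 genes, the lists (192 genes, of which 174 had a probe set) and the tests were chosen with earlier results of these data known. All 10 genes were named in every tissue, and of each other list up to 4 called genes of smallest p. Same-numbered hypoxia and vehicle arrays deviated together in liver (correlations of 0.166 to 0.535 across genes), which passed the rule used for pairing. They did not pass it in bone marrow (-0.03 to 0.32) or spleen (-0.48 to 0.31). In liver the closest vehicle array had the same number for 4 of 8 hypoxia arrays. It always lay in the same replicate set, so the check cannot tell pairs from replicate sets. The pairing comes from the title numbers. The number of arrays limits the precision.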

Additional observations from a re-analysis of the deposited data

Results flagged for a closer look

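Dixon's test at the 95% level was run on 50 groups of 4 to 8 arrays of these genes, and chance flags about 1 group in 20. It picked out 4 arrays. Id3 in liver hypoxia replicate 3 was the highest of its group at 7.84, with the next at 7.07. Tfr2 in liver vehicle replicate 3 was the highest at 12.31, with the next at 12.11. Smad6 in spleen hypoxia replicate 1 was the highest at 6.34, with the next at 5.76. Smad7 in spleen hypoxia replicate 4 was the lowest at 8.06, with the next at 8.72.

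The hypoxia response differed between tissues by the interaction test for 7 gene and tissue pairs. Liver minus spleen was -1.22 for Id2, 0.53 for Id4 and -0.74 for Smad7. The Id4 value was 0.18 and not called (adjusted p = 0.737) on the probe set brightest in spleen, which was dim in liver. Liver minus bone marrow was -1.65 for Id2 and -1.72 for Id3. Spleen minus bone marrow was -1.26 for Id3 and -1.73 for Id4.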

How the results depend on the processing

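Over the other settings, leaving out single arrays aside, 387 of 414 member values kept their direction and their side of the threshold, 9 gained a call, 9 lost one and 9 turned direction; the cause was not tested. Under median centring Bmp6 in liver was 0.0011. With replicates 1 to 4 alone, Bmp6 in liver was 0.044, Id1 in spleen 0.23 and Tfr2 in spleen -0.058, 1 gene was called in liver and 2 in spleen, and all-gene calls were 759 in liver and 461 in spleen. With replicates 5 to 8 alone, Smad7 in liver was 0.22, Tfr2 in liver 0.060, and in spleen Smad6 was -0.13, Bmp6 -0.39 and Slc40a1 -0.15, with 7 genes called in spleen. With replicate set as a term, all-gene calls were 2668 in liver, 1845 for liver minus spleen and 650 for liver minus bone marrow. With no filter on dim genes, all-gene calls were 55 for spleen minus bone marrow and 0 for the spleen replicate sets. The exact Wilcoxon test called 0 genes in bone marrow, where its smallest possible p is 0.0571.

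With the replicate number as a block, all-gene liver calls were 2385, and Slc40a1 in liver gained a call (adjusted p = 0.0407). In bone marrow, where same-numbered arrays did not pass the rule used for pairing, Id1 gained one (0.0323) and Smad7 lost one (0.0556). The block changed no other call of the 10 genes.

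Leaving out 1 array at a time, calls of the 10 genes ran from 2 to 3 in liver, 2 to 3 in bone marrow, 2 to 4 for liver minus spleen, 2 to 3 for liver minus bone marrow, 0 to 2 for spleen minus bone marrow and 0 to 1 for the spleen replicate sets. All-gene calls ran from 409 to 909 in bone marrow, 167 to 412 for liver minus bone marrow, 9 to 52 for spleen minus bone marrow, 0 to 2 for the liver replicate sets and 0 to 597 for the spleen replicate sets. Bmp6 ran from -0.083 to 0.041 in liver and from -0.060 to 0.10 in spleen, and Slc40a1 in spleen from -0.0066 to 0.079. In bone marrow Id1 ran from -0.76 to -0.31, Id3 from 0.017 to 0.17, Bmp6 from 0.060 to 0.59, Tfr2 from 0.079 to 0.26 and Slc40a1 from 0.063 to 0.41. Without the 2 spleen arrays high in acinar markers, a choice made after seeing the data, the calls of the 10 genes in spleen did not change. With a single tissue's brightest probe set in the tissue contrasts, also chosen after seeing the data, Id4 lost its call for liver minus spleen and gained one for liver minus bone marrow, and no other call of the 10 genes changed. Of the genes named from the other lists, replicates 1 to 4 alone lost 8 of 17 calls in liver and 11 of 13 in spleen, replicates 5 to 8 alone lost 5 and 4, the mean of probe sets lost 3 of 17 in liver and 3 of 7 in bone marrow, median centring lost 4 of 17 in liver, the replicate block lost 2 of 7 in bone marrow and 3 of 13 in spleen, the exact Wilcoxon test lost 2 liver calls, 3 spleen calls and all 7 marrow calls, and none turned direction in these settings. Genes near the filter, such as Hamp in bone marrow and spleen, have too little signal for a difference to be read.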

Other observations

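Over the 16 liver arrays, after the mean of an array's own group and replicate set was taken off, the genes whose levels followed Hamp most closely were Hamp2 (Pearson r = 0.862), Mdm4 (0.858), Mgst1 (0.834), Gm10658 (0.819) and Bach1 (0.814), among 12735 genes. Of these, Mdm4 and Gm10658 were lower in hypoxia livers, at -0.27 and -0.43 on the log2 scale (limma, adjusted p = 0.0472 and 0.0177), and Hamp2 differed by -0.56 (adjusted p = 0.204). Hamp2 is the near-identical copy of Hamp. The genes most like Id1 were Atp2c1 (0.900), Rragc (0.881), Atxn1 (0.854), Dhrsx (0.843) and Ppara (0.836). Ppara, a nuclear receptor of fatty acid oxidation, was lower in hypoxia livers, at -0.45 (limma, adjusted p = 0.00709). These correlations share the arrays and their normalization and are given as a description.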
